A study of Homo sapiens with 6 samples.

Results

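Distal BORIS-only peaks were 2270 regions of the genome at which BORIS was called in FT282 cells made to express it, with no CTCF peak at the same place and no gene end nearby. They were chosen from the 23653 peaks of the BORIS list, of which they made up 9.60% (95% Wilson interval 9.23 to 9.98). A peak was taken when it overlapped, by 1 bp or more, no CTCF peak of the empty-vector cells and no CTCF peak of the BORIS cells, and when its centre lay more than 5 kb from every end of a gene span in the expression table. The choice therefore used the peak calls of all 3 immunoprecipitations. BORIS-only peaks at any distance numbered 7937, or 33.6% of the list, and the distal ones were 28.6% of these (27.6 to 29.6). They were 20.2% of the 11243 distal BORIS peaks (19.5 to 20.9).

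FT282 is a cultured line of secretory epithelium from the fallopian tube, and the labels describe a clonal derivative of it grown in serum. Cells stably carrying the empty vector (EV cells) were set against cells stably carrying BORIS (BORIS cells). CTCF was immunoprecipitated from both with 1 monoclonal antibody and BORIS from BORIS cells with another, and RNA was sequenced from both. Each of these groups held 1 sample, so no comparison below has a test or a replicate check, and every interval covers counting error only. The labels name 2 RNA library kits without giving the kit of each library, and a kit difference could not be told apart from the vector.

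BORIS, the product of CTCFL, is a paralog of CTCF that is normally made in the male germ line and is switched on in some cancers. Both proteins have a closely similar array of zinc fingers and can bind the same DNA motif. CTCF holds the anchors of chromatin loops together with cohesin and acts as an insulator, whereas BORIS has mostly been described at active promoters and at sites where CTCF also binds.

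The labels were checked on the RNA first. CTCFL was at 0.00532 FPKM (an RNA level scaled by transcript length and by library size) in EV cells, against 53.3 FPKM with BORIS, while CTCF was at 21.1 and 20.8 FPKM. Of 7 markers of secretory fallopian epithelium, 5 were at 1 FPKM or more in both libraries, among them PAX8 at 71.3 and 72.5 FPKM and WT1 at 15.8 and 16.0 FPKM. EPCAM, at 0.732 and 0.574 FPKM, and OVGP1, at 0.0951 and 0.120 FPKM, were below 1 FPKM in both. FOXJ1, the master factor of ciliated cells, was listed at 0 in both, and the leukocyte marker PTPRC was at 0.0289 and 0.0371 FPKM. Other markers of the same kinds were above 1 FPKM, with CAPS of ciliated cells at 1.47 and 1.11 FPKM and CD68 of macrophages at 1.48 and 2.26 FPKM. Of 3 endothelial markers, CDH5 was at 35.2 and 30.2 FPKM, VWF at 1.07 and 1.13 and PECAM1 at 0.00815 and 0.0134. The part of these markers in the results was not tested. The 6 fibroblast markers summed to 639 FPKM in EV cells and 535 in BORIS cells, most of it THY1 at 512 and 436 FPKM. They were not uniform. COL1A1 was at 64.8 and 46.5 FPKM and COL1A2 at 61.0 and 51.6. PDGFRB was at 1.38 and 0.763 FPKM, PDGFRA at 0.0634 and 0.105 and COL3A1 at 0.0307 and 0.0109.

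The words "far from gene ends" hold only as far as the gene spans of the expression table do. Rows that overlap one another were given 1 merged span, and 556 distal BORIS-only peaks (24.5%, 22.8 to 26.3) lay in such a shared span, where a gene's own end may be hidden. Distances were taken to the outer ends of a span, so a transcript start inside a single gene's span is not seen either. The table also places 272 rows on alternate or unplaced sequences, 211 of them of chromosome 6 and 22 of chromosome 17. Stretches of the main chromosomes without any span were set apart where they exceeded 500 kb and held 10 or more of the peaks. These 3 were chromosome 6 from 28483570 to 32485153, chromosome 6 from 32611429 to 33540322 and chromosome 17 from 43394414 to 44841686 (all coordinates hg19). Shorter stretches, or those with fewer of the peaks, were not set apart. They held 44, 12 and 11 of the peaks, 67 in all (2.95%). The first 2 stretches cover the region of the HLA genes, which is dense in genes, so that distances to a gene end are not usable there. Without shared spans and these stretches, 1647 peaks were left. Of the 2270, 646 (28.5%) lay inside the span of a single gene and 1001 between spans outside the stretches.

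Distal BORIS-only peaks were among the weaker BORIS peaks. Their median score, the authors' own value for a peak and one without a stated unit, was 159 (95% interval 157 to 162, range 14 to 1488). The median of the whole list was 254. BORIS-only peaks within 5 kb of a gene end (5667 peaks, called gene-end peaks below) had a median of 195 (193 to 197). Distal BORIS peaks that overlapped CTCF in both cell lines (8583 peaks, called distal shared peaks below) had a median of 283 (278 to 289).

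When the BORIS list was cut into 10 equal parts by score, the share taken by distal BORIS-only peaks fell at every step. They were 614 peaks, or 26.0% (24.2 to 27.8), of the lowest part and 391, or 16.5%, of the next. In the middle of the list, the fifth part, they were 213 peaks or 9.01%. In the highest part they were 8 peaks, or 0.338% (0.171 to 0.666). Distal shared peaks ran the other way, from 29.2% of the lowest part to 44.5% of the ninth and 39.9% of the highest. Gene-end peaks took 30.4% of the lowest part and 3.09% of the highest.

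**Figure D1:**
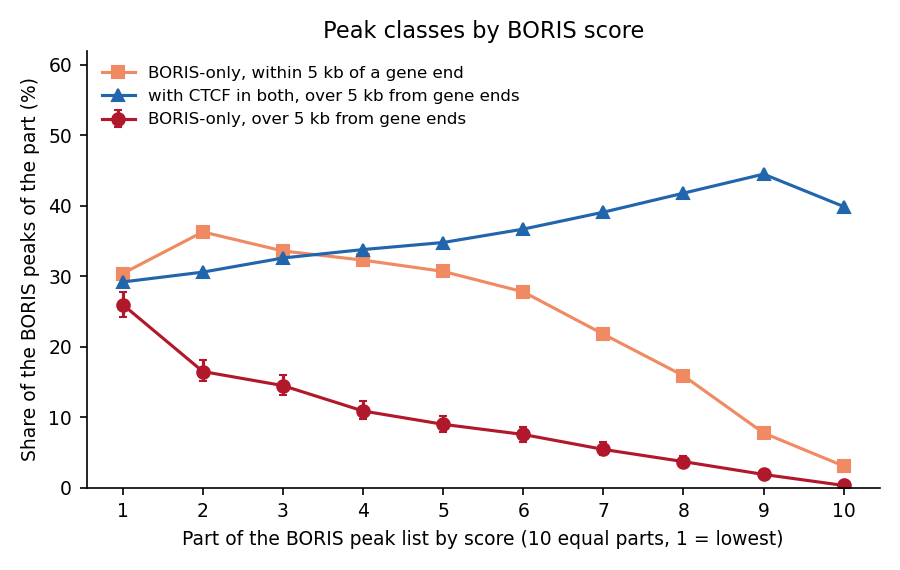
Share of each of the 10 equal parts of the BORIS list (percent, by score from lowest to highest) taken by distal BORIS-only peaks, with 95% Wilson intervals, by BORIS-only peaks within 5 kb of a gene end and by distal peaks with CTCF in both lines. The distal BORIS-only share runs from 26.0% in the lowest part to 0.338% in the highest.

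The peaks were also broader than those shared with CTCF. Their median width was 368.5 bp (360 to 379), against 303 bp (301 to 305) for distal shared peaks and 509 bp (500 to 519) for gene-end peaks. Of the distal BORIS-only peaks, 115 (5.07%) were wider than 1 kb, against 1.58% of distal shared peaks, a difference of 3.48 percentage points (2.60 to 4.49). Among gene-end peaks the share was 12.3%. The position that the authors' list marks inside a peak lay within 10% of the width from the middle in 47.4% of distal BORIS-only peaks, in 39.0% of gene-end peaks and in 73.2% of distal shared peaks. Distal BORIS-only peaks thus lay between the other classes in width and in the centring of the marked position. Within the class, peaks in shared spans were the broadest, with a median of 458 bp and 10.3% over 1 kb. Those in a single gene's span had a median of 334.5 bp with 3.41% over 1 kb, and those in no span 356.5 bp with 3.37%.

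**Figure D2:**
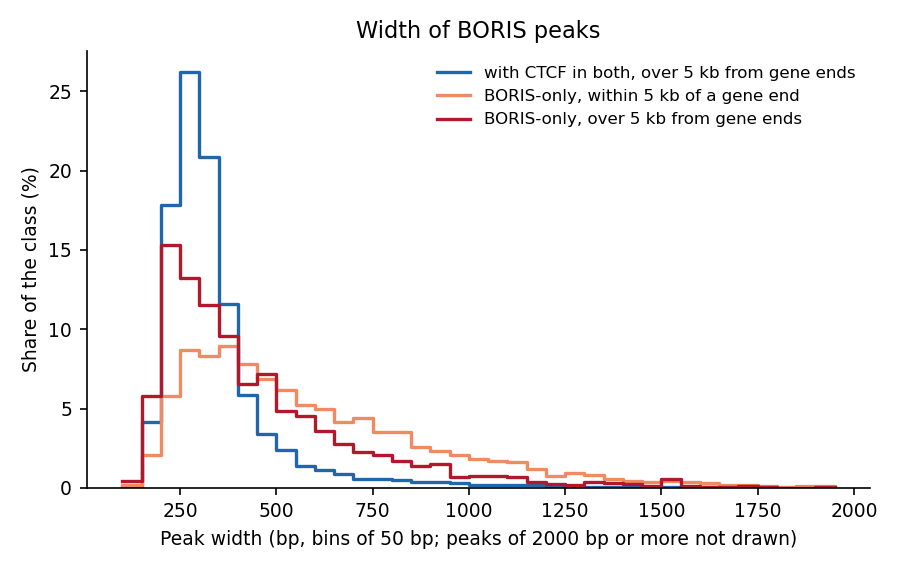
Width of BORIS peaks in bp (bins of 50 bp) against the share of each class in percent. Distal peaks with CTCF in both lines gather near their median of 303 bp, and distal BORIS-only peaks, with a median of 368.5 bp, spread further to the right.

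The 10 highest-scoring distal BORIS-only peaks were examined one by one. The highest, at chromosome 7, 76589029 to 76589644, had a score of 1488 and lay in no gene span, 20.8 kb from the end of the read-through pseudogene DTX2P1-UPK3BP1-PMS2P11. Its nearest CTCF peak was 34.7 kb away in BORIS cells and 3.69 kb away in EV cells. The next, at chromosome 20, 20032554 to 20033532, had a score of 1229 and lay in a span shared by CRNKL1, a splicing factor, and C20orf26. Of the 10, 4 lay in shared spans, 2 in the span of a single gene and 4 in no span.

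A pair of the 10 stood on the short arm of chromosome 17 and were also the widest of the class. One, from 18965075 to 18967599, was 2525 bp wide with a score of 886, and lay 16.0 kb from a span shared by FAM83G, GRAP and SLC5A10. The other, from 19091183 to 19093704, was 2522 bp wide with a score of 994, and lay 30.3 kb from GRAPL. GRAP and GRAPL are near-identical copies, and reads from such copies may be assigned to either place. Neither peak lies in their spans, and whether this bears on the peaks was not tested. Both peaks are held as uncertain. The remaining peaks of the 10 in no span or a shared span were at chromosome 16, 3200650 to 3201230 (score 935, 8.13 kb from ZNF213), at chromosome 2, 219535979 to 219536745 (score 927, span of STK36 and RNF25), at chromosome 5, 176874692 to 176875242 (score 865, span of PRR7, LOC340037 and GRK6) and at chromosome 4, 141293866 to 141294659 (score 839, span of SCOC and LOC100129858).

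Peaks inside the span of only 1 gene reached lower scores. The highest was at chromosome 20, 31062795 to 31063417, in C20orf112 (score 733), and the next at chromosome 9, 693183 to 693561, in KANK1 (score 719), a regulator of actin assembly. The KANK1 peak lay 52.7 kb from the end of the gene span. Its nearest CTCF peak was 3.23 kb away in BORIS cells and 63.9 kb away in EV cells. Below these came peaks in PTK7, a pseudokinase receptor of planar cell polarity (score 714), in ZNF232 (711), in PTCHD2 (711), in CNOT6L, a subunit of the deadenylase complex (677), and in SORL1, a sorting receptor (547). A 1427 bp peak in ADAR, the adenosine deaminase that edits RNA, had a score of 536. Their scores all lay below those of the first 8 peaks of the class.

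The other 3 of the 5 widest peaks lay in shared spans. A peak of 2331 bp at chromosome 12, 66217950 to 66220280, with a score of 231, lay in the shared span of HMGA2, an architectural chromatin protein of embryonic cells, and RPSAP52. One of 1974 bp at chromosome 9, 98268560 to 98270533, with a score of 330, lay in the shared span of PTCH1, the Hedgehog receptor, and LOC100507346. Its nearest CTCF peak of BORIS cells was 164 kb away. One of 1930 bp at chromosome 4, 109088595 to 109090524, with a score of 304, lay in the shared span of LEF1, a WNT effector, and LOC641518, 107 kb from CTCF. In such spans a gene's own start may lie unseen near the peak.

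At the threshold of 5 kb the choice was arbitrary. The peaks just inside lay in ALDOA, encoding aldolase (5001.5 bp from the span's end, score 235), in SUV39H1, encoding a histone methyltransferase (5002.5 bp, score 158), and outside MIR183 (5003 bp, score 170). The BORIS-only peaks just left out lay near FAM200B (4988.5 bp, score 172), near ISOC2 (4986.5 bp, score 419) and in the shared span of ZEB2 and its antisense RNA (4979 bp, score 280). The median distance of the class to the nearest gene end was 32.2 kb. It exceeded 50 kb for 832 peaks and 500 kb for 60, of which 17 were outside the stretches and shared spans.

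Although no CTCF peak overlapped them by construction, many lay near one. The median distance from centre to centre to the nearest CTCF peak of BORIS cells was 12049.5 bp (11228.5 to 12840). By this distance 1008 peaks (44.4%) were within 10 kb. Measured from edge to edge, 293 peaks (12.9%, 11.6 to 14.3) were within 1 kb of a CTCF peak. At the other extreme, 74 (3.26%) were more than 100 kb away from centre to centre. For gene-end peaks the median distance was 9557 bp (9096 to 10039) and 19.7% were within 1 kb. The closest case was a peak in NFIB, a nuclear factor I gene, at chromosome 9, 14322200 to 14322463, which ended 3 bp from a CTCF peak of BORIS cells and 0.0570 kb from one of EV cells. The most isolated were on chromosome X, 317 kb from CTCF with IRS4 as the nearest gene, and 291 kb from CTCF beside DMD, and on chromosome 2, 262 kb from CTCF near IRS1.

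Slightly more than 1 in 2 distal BORIS-only peaks lay inside a gene span. The count was 1202, or 53.0% (50.9 to 55.0), against 45.8% of distal shared peaks, a difference of 7.14 percentage points (4.83 to 9.44). Gene-end peaks were inside a span in 75.1% of cases. The excess over distal shared peaks was found in the spans of overlapping rows, which held 24.5% of distal BORIS-only and 15.0% of distal shared peaks (difference 9.53 points, 7.64 to 11.5). Spans of a single gene held 28.5% and 30.9% (difference -2.39 points, -4.46 to -0.269). With the peaks in overlapping rows' spans left out of both classes, 37.7% and 36.3% lay inside a gene, and the difference of 1.41 points had an interval of -1.11 to 3.98 that includes 0.

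Among single-gene spans, distal BORIS-only peaks lay mostly in genes that EV cells already expressed. Their density was taken over the parts of such spans more than 5 kb from any gene end, by the gene's FPKM in EV cells, a measure the choice of peaks did not use. Genes listed at 0 held 31 peaks in 114 Mb, or 0.272 per Mb (exact Poisson interval 0.185 to 0.387). Genes from 1 to 10 FPKM held 0.713 per Mb (0.604 to 0.835). Genes from 10 to 100 FPKM held 321 peaks in 221 Mb, or 1.45 per Mb (1.30 to 1.62). Genes at 100 FPKM or more held 33 peaks in 9.75 Mb, or 3.39 per Mb (2.33 to 4.75). Density was thus higher in every class of higher expression from 1 FPKM up, with intervals that did not overlap. Between gene spans it was 0.665 per Mb (0.626 to 0.706), close to that of weakly expressed genes. The lengths count every base, also any that reads cannot reach, and the part of this was not tested.

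Set as a ratio, genes at 1 FPKM or more held 1.14 peaks per Mb (506 peaks) and genes below 1 FPKM 0.443 per Mb (140 peaks), 2.57 times (exact interval 2.13 to 3.12). The same ratio was 1.50 (1.38 to 1.63) for distal shared peaks and 1.11 (1.06 to 1.17) for distal CTCF peaks without BORIS. The ratio of distal BORIS-only peaks was 1.72 times that of distal shared peaks (1.40 to 2.11) and 2.31 times that of CTCF peaks without BORIS (1.90 to 2.80). The order was the same within the lower-scoring 50% of the BORIS list, where the ratios were 2.48 (2.02 to 3.07) for distal BORIS-only and 1.44 (1.27 to 1.63) for distal shared peaks, and within the upper 50%, where they were 3.09 (1.89 to 5.31) and 1.54 (1.38 to 1.72). By length of the span, the ratio of distal BORIS-only peaks was 1.55 (1.04 to 2.34) for 10 to 50 kb, 2.61 (1.91 to 3.63) for 50 to 200 kb and 2.95 (2.17 to 4.08) above 200 kb. It exceeded that of distal shared peaks 1.72, 2.06 and 1.39 times in these classes, and in the last the interval of 0.991 to 1.96 reached 1. Depth, the call threshold and chromatin accessibility can differ between the lists, and their part in these ratios was not tested. Nor was the part of transcript starts inside a span, which the distance to span ends does not see.

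**Figure D3:**
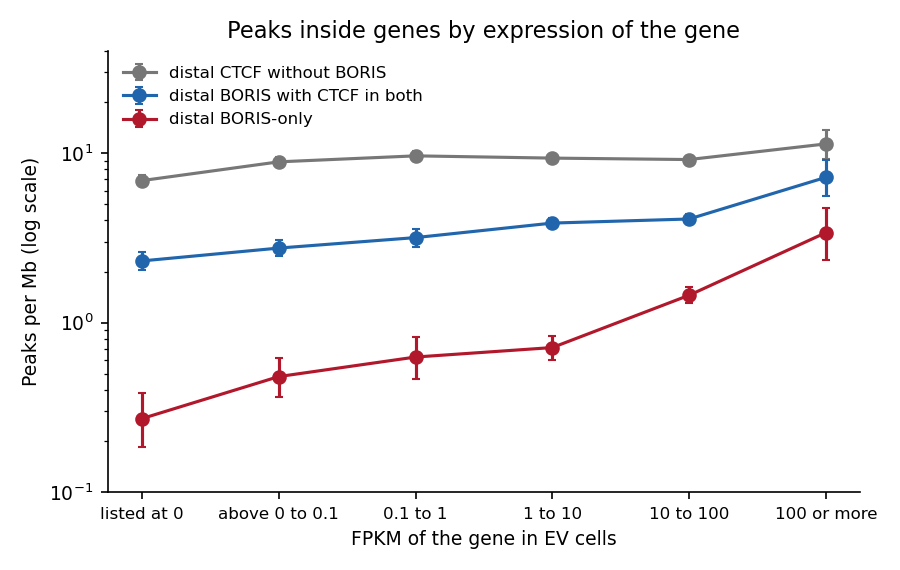
Peaks per Mb (log scale, 95% exact Poisson intervals) inside single-gene spans and more than 5 kb from gene ends, by the gene's FPKM in EV cells. Distal BORIS-only peaks run from 0.272 per Mb in genes listed at 0 to 3.39 per Mb in genes at 100 FPKM or more, a steeper course than that of the classes with CTCF.

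Distal BORIS-only peaks thinned out with distance from the gene end, less so inside expressed genes than between genes. In genes at 1 FPKM or more, distal BORIS-only peaks numbered 1.39 per Mb (1.11 to 1.72) at 5 to 10 kb from the nearest end, 1.21 per Mb (1.03 to 1.41) at 20 to 50 kb, 0.958 per Mb (0.704 to 1.27) at 100 to 200 kb and 0.632 per Mb (0.368 to 1.01) beyond. The intervals of the first 3 of these overlapped, and that beyond 200 kb lay below the first. In the same genes, distal shared peaks went from 5.54 per Mb (4.96 to 6.16) to 4.08 (3.74 to 4.43), 2.49 (2.06 to 2.97) and 2.60 (2.03 to 3.29). Between genes, distal BORIS-only peaks went from 1.46 per Mb (1.24 to 1.71) at 5 to 10 kb to 0.451 (0.372 to 0.542) at 100 to 200 kb and 0.252 (0.212 to 0.298) beyond. There distal shared peaks went from 8.02 per Mb (7.49 to 8.58) to 1.70 (1.54 to 1.87) and 0.704 (0.636 to 0.777). Distal shared peaks thus also thinned out less inside expressed genes than between genes, and this contrast was not particular to distal BORIS-only peaks. Distal CTCF peaks without BORIS likewise went from 14.5 to 3.43 per Mb between genes, and from 10.5 to 8.07 in genes at 1 FPKM or more. Bases that reads cannot reach were not taken out of the lengths, and their part in these courses was not tested. In genes below 1 FPKM the counts per bin were 12 to 38 and showed no steady course.

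**Figure D4:**
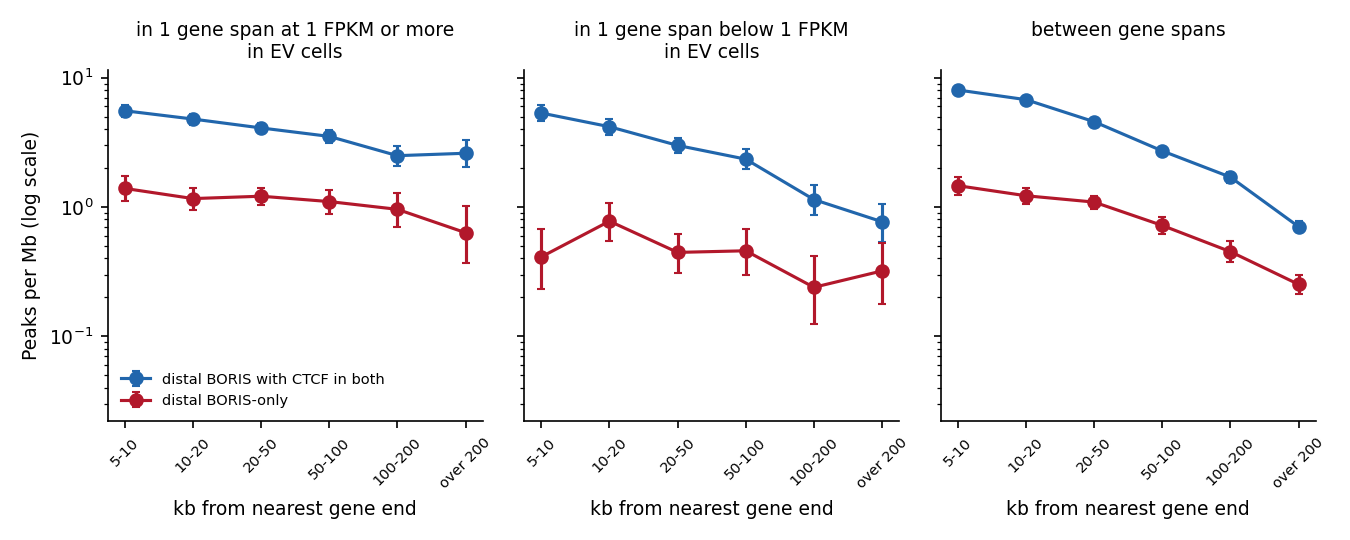
Peaks per Mb (log scale, 95% exact Poisson intervals) by distance in kb from the nearest gene end, inside expressed single genes, inside genes below 1 FPKM and between genes. Distal BORIS-only peaks go from 1.39 to 0.632 per Mb inside expressed genes and from 1.46 to 0.252 per Mb between genes.

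Distal BORIS-only peaks gathered more than distal shared peaks did. Another of their own class lay within 10 kb for 523 of them (23.0%, 21.4 to 24.8), against 16.7% of the more numerous distal shared peaks, a difference of 6.30 percentage points (4.43 to 8.24). Gene-end peaks had a like neighbour in 33.1% of cases. Chained at 10 kb, the class fell into 1747 single peaks, 201 pairs and 38 runs of 3 or more that held 121 peaks. On chromosome 2, the runs from 110679207 to 110685858 and from 111200804 to 111207454 had the same length (6.65 kb) and median score (69). Their score range (46 to 184) and CTCF distances (23.1 to 29.4 kb) were also the same. The runs from 109268858 to 109278799 and from 110653557 to 110663641 had CTCF distances of 0.986 to 7.31 and 0.988 to 7.32 kb. Whether near-identical copies of sequence raised the counts of runs and neighbours was not tested. With only the higher-scoring 50% of the BORIS list kept, 446 of the peaks remained and the share with a neighbour was 6.95%. A sparser set has fewer neighbours by itself, and the part of this was not tested.

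The longest runs held 5 peaks each. One covered chromosome 6 from 31783393 to 31797538, with scores of 203, 231, 212, 203 and 258. It stood in a stretch without spans. The expression table lists HSPA1A and HSPA1B, stress-inducible chaperones, and their relative HSPA1L only on alternate sequences. The spans used here therefore assign no gene to the run, and genes may lie unseen at its peaks. In these 2 libraries HSPA1A was at 10.4 and 10.8 FPKM, HSPA1B at 12.3 and 12.2 and HSPA1L at 1.18 and 1.04. The last of its peaks ended 9 bp from a CTCF peak of BORIS cells. The other covered chromosome 18 from 3595452 to 3606259, with scores of 104, 192, 96, 110 and 120, in the span that DLGAP1, a postsynaptic scaffold gene, shares with 3 other rows. Runs of 4 peaks lay at chromosome 3, 64671795 to 64674892, in the shared span of ADAMTS9, a matrix protease (median score 201), at chromosome 8, 145002496 to 145018175, in that of PLEC, the cytoskeletal linker plectin (197), and at chromosome 2, 96298608 to 96308991, in no span (146.5). That last run was the most uneven, with scores of 50, 395, 209 and 84, and its nearest gene was TRIM43.

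Across chromosomes, the share of BORIS peaks that were distal and BORIS-only ran from 5.77% on chromosome 19 (64 of 1110, 4.54 to 7.30) to 13.1% on chromosome 18 (59 of 450, 10.3 to 16.5). Chromosome 6 had 12.8%, and 9.62% outside the stretches set apart above. The 1-Mb windows with most of them were at 30 to 31 Mb of chromosome 6 (17 of 38 BORIS peaks) and at 31 to 32 Mb (14 of 34), both in such a stretch. The next was at 3 to 4 Mb of chromosome 18 (11 of 30), in the DLGAP1 region. The choice leaves out BORIS peaks within 5 kb of gene ends. The share of a chromosome therefore also depends on how many of its BORIS peaks lie there, and the part of this was not tested.

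The genes that held these peaks were called hosts, and their RNA was compared between the cell lines as log2((BORIS + 1)/(EV + 1)) of the FPKM values. This scale understates the change of low genes. A gene was called higher or lower when this ratio reached 1 in size and its larger value was at least 1 FPKM. Of 1635 hosts, 1112 had such a value. Of them 16 were higher (1.44%, against 1.42% of the 12363 genes measured) and 11 lower (0.989%, against 0.922%). The shares were close to the background in both directions. Of the 16 higher hosts, 15 were microRNA genes inside shared spans, and the remaining one was SCARNA27, a small Cajal body RNA listed at 0 in EV cells. Short RNAs can reach high FPKM from few reads. With genes whose symbols begin with MIR, RNU, SNORA or SNORD left out, SCARNA27 was then the 1 higher host of 1078 (0.0928%, background 0.471%) and 5 were lower (0.464%, background 0.193%).

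The 5 lower hosts outside the small RNAs were SULF1, ACTA2, KCNIP1, TNFAIP8L2-SCNM1 and URGCP-MRPS24. ACTA2, encoding smooth muscle actin, was at 697 FPKM in EV cells against 292 in BORIS cells, with a log2 ratio of -1.25, and its span is shared with other rows and holds 3 of the peaks. KCNIP1, a potassium channel modulator, was at 3.34 and 1.05 FPKM in a shared span. The last pair are read-through transcripts that share exons with their neighbours, and their values are uncertain. SULF1 alone had a span of its own.

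Hosts with a span of their own were also read apart. There were 526 outside the small RNA families, of which 404 were measured (76.8%), against 62.3% of all own-span genes over 10 kb and 67.7% of the own-span hosts of distal shared peaks. Their median level in EV cells was 15.5 FPKM, against 11.3 FPKM for own-span genes over 10 kb. No host of the 404 was higher by the ratio, against 0.385% of the 7019 measured own-span genes over 10 kb. Of the hosts 1 was lower (0.248%, against 0.114% of those genes). The ratio was within 0.5 of 0 for 97.0% of the hosts and 96.7% of those genes. It was below 0 for 233 hosts and for 3641 of the 7019 genes, with medians of -0.03 and -0.01. The hosts of distal shared peaks also had a median of -0.03, with 777 of 1351 below 0. Levels were thus close to equal in the 2 libraries for most measured hosts, as they were for own-span genes over 10 kb.

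In the authors' deposited table, which tests each gene on these 2 libraries, 27 of the 404 hosts were marked as significantly higher (6.68%) and 47 as lower (11.6%). In the same authors' deposited table the marks over all measured genes were 5.46% higher and 6.44% lower, and over own-span genes above 10 kb they were 6.38% and 7.71%. The own-span hosts of distal shared peaks had 11.2% marked lower in the authors' deposited table, so this share was near that of the class with CTCF. Such marks compare 2 libraries and not replicated conditions.

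**Figure D5:**
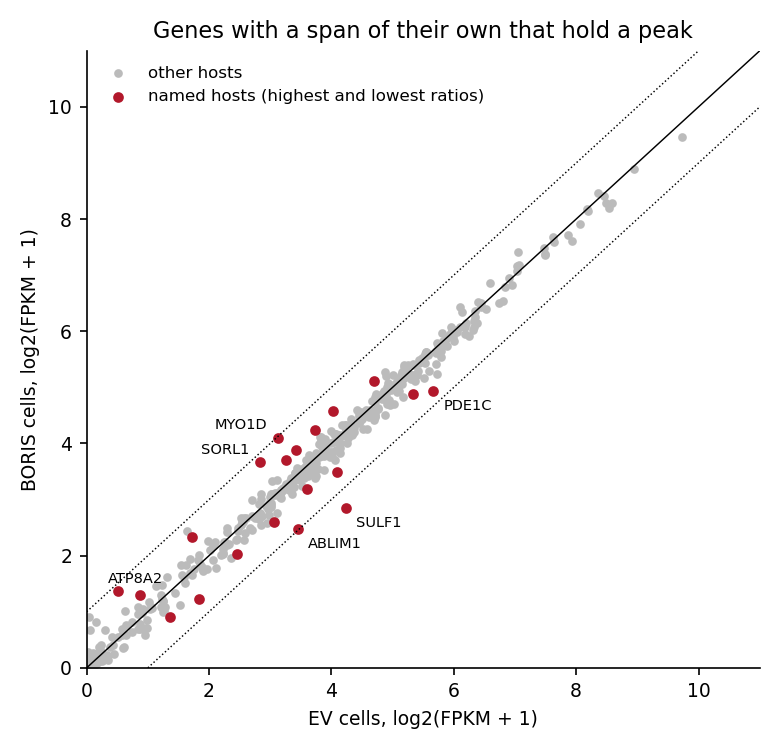
Level of own-span hosts as log2(FPKM + 1) in EV cells (x axis) and BORIS cells (y axis), with the line of equal levels and dotted lines at a log2 ratio of 1 and -1. The 10 highest and 10 lowest ratios among hosts with an official symbol, a usable estimate and 1 FPKM are in red, and SULF1 is the one measured host beyond the lower dotted line.

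Among the hosts with the highest ratios, MYO1D, an unconventional myosin, was at 7.74 FPKM in EV cells and 16.2 in BORIS cells (log2 ratio 0.98), with its peak at chromosome 17, 31149530 to 31149789 (score 130). SORL1 was at 6.10 and 11.7 FPKM (0.84), with a peak of score 547 at chromosome 11, 121337441 to 121337743. ATP8A2, a phospholipid flippase, was at 0.425 and 1.57 FPKM (0.85) with a peak of score 422. None of these 3 reached the ratio of 1, although all had the higher value in BORIS cells.

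Below them came GPC6, a heparan sulfate proteoglycan, at 2.28 and 4.05 FPKM (0.62), NRP1, a co-receptor of semaphorins and VEGF, at 15.4 and 22.9 (0.55), and ITGA2, a collagen-binding integrin chain, at 12.3 and 18.0 (0.51). LAMA3, a chain of the laminin of epithelial basement membrane, was at 9.76 and 13.8 FPKM (0.46). SMAD1, a transducer of BMP signals, was at 8.61 and 12.0 (0.44). PDZRN3, a ubiquitin ligase, was at 24.9 and 33.8 (0.42). TOX, a DNA-bending factor known from lymphocytes, was at 0.821 and 1.47 FPKM (0.44) and held a pair of peaks, at chromosome 8, 59762747 to 59763111 (score 166) and 59763645 to 59763833 (score 117). Of these 7 genes, only NRP1 and PDZRN3 also held distal peaks shared with CTCF, 3 and 2 of them.

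At the other end, SULF1, which trims sulfate groups from heparan sulfate, was at 17.9 FPKM in EV cells and 6.18 in BORIS cells (log2 ratio -1.40). Its peak at chromosome 8, 70404706 to 70405270, had a score of 268 and lay 26.1 kb from the gene's end and 18.5 kb from CTCF. ABLIM1, an actin-binding LIM protein, was at 9.93 and 4.53 FPKM (-0.98), with a peak of score 233. PDE1C, a cyclic nucleotide phosphodiesterase, was at 49.4 and 29.6 FPKM (-0.72), with a peak of score 277. SULF1 alone of these passed the ratio of 1.

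The low hosts that followed were ATL1, which shapes the endoplasmic reticulum, at 2.55 and 1.34 FPKM (-0.60), RTKN2 at 16.0 and 10.3 (-0.59), and CLIC5, a chloride channel relative tied to actin, at 1.57 and 0.877 (-0.46). CRISPLD2, a secreted protein, was at 39.2 and 28.4 FPKM (-0.45). FHDC1, an actin-nucleating formin, was at 7.32 and 5.09 (-0.45). PRKCE, a protein kinase C, was at 4.51 and 3.11 (-0.42). All 19 hosts named here by their ratio carried the authors' mark of significance in the authors' deposited table. The hosts were picked by that ratio from the same 2 libraries, so the marks are no separate support. The peaks of these hosts had scores from 88 (SMAD1) to 547 (SORL1).

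Most hosts held a single peak. Of the 526 own-span hosts, 442 held 1, 60 held 2 and 18 held 3. Those with 4 were KCNMA1, a potassium channel, SMAD3, the transducer of TGF-beta, ASAP2, an Arf GTPase activator, and DDAH1, an enzyme of arginine metabolism. Among those with 3 were EPHA2, ETS1, NFIB, COL4A2 and DLC1. Counting shared spans, the most were the 10 in the DLGAP1 span, where DLGAP1 was at 20.4 and 23.4 FPKM, and the 7 in the span of PTBP3 and SUSD1. PTBP3, an RNA-binding repressor of splicing, was at 43.3 and 52.0 FPKM there. SRGAP2P2 also held 7 and SRGAP2 held 5, and as near-identical copies of one gene family their peaks are uncertain.

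Gene groups were read by how many of their members with a span over 10 kb held a peak, since a shorter span cannot. Of all 15685 such genes 9.56% held one, and of the 9662 at 1 FPKM or more 11.2%. The lists below were made up of 403 entries, of which 401 were found in the table. Long spans hold more peaks, and most lists had a longer median span than the 45.6 kb of all these genes, which bears on every count.

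Genes of attachment and of the contractile cytoskeleton held these peaks more often than that background. Of 27 integrin and focal adhesion genes 9 did (33.3%, 18.6 to 52.2, median span 98.4 kb). ITGA1, which pairs in a collagen receptor, was at 4.06 and 6.78 FPKM (0.62), and PXN, the adaptor paxillin, at 25.8 and 21.5 (-0.25). Of 33 genes of the actin cytoskeleton and motility 9 did (27.3%, 15.1 to 44.2, 96.8 kb). All 9 were lower in BORIS cells in value and 1, ACTA2, was lower by the ratio. Of the 36 measured genes of the whole list, 1 was higher and 2 were lower by the ratio. Over all measured genes outside the small RNAs the shares were 0.471% and 0.193%. TAGLN, the calponin-like protein transgelin, was at 2358 and 1680 FPKM (-0.49). MYH9, the heavy chain of nonmuscle myosin, was at 851 and 701 FPKM (-0.28). The direction was shared by list members without a peak: 23 of 27 measured ones were below 0, with a median of -0.24 against -0.28 for those with a peak. List members with and without a peak thus had the same prevailing direction.

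Transcription factors of enhancers were a further group. Of 25 AP-1, ETS and related factor genes 8 held one (32.0%, 17.2 to 51.6, median span 100 kb), with 16 peaks in all. FOSL2, an AP-1 subunit, was at 51.5 and 41.7 FPKM (-0.30), and ZEB2, a repressor of epithelial genes, at 5.79 and 7.04 (0.24). RUNX1, RUNX2, NFIB, ETV6, TCF4 and ETS1 were the other hosts, with ratios from -0.15 to 0.05. None of the 8 was higher or lower by the ratio, and neither was any of the 32 measured genes of the whole list. Over all measured genes outside the small RNAs the shares were 0.471% and 0.193%.

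WNT genes had a like share, 6 of 23 (26.1%, 12.5 to 46.5) with a median span of 56.8 kb. Among them WNT5A was at 17.1 and 19.0 FPKM (0.14) and RNF43 at 0.813 and 0.472 FPKM. Extracellular matrix genes held one in 5 of 40 (12.5%), among them COL4A2, a chain of basement membrane collagen, at 382 and 311 FPKM (-0.30). Growth factor receptor kinases did in 4 of 32 (12.5%), with EGFR at 18.3 and 16.1 FPKM (-0.17). TGF-beta, BMP and YAP genes did in 4 of 24 (16.7%), with INHBA, an activin subunit, at 85.7 and 63.3 FPKM (-0.43) and TEAD1, the partner of YAP, at 31.4 and 25.1 (-0.31). Cadherins did in 3 of 32 (9.38%), with CDH13 at 93.8 and 88.2 FPKM (-0.09) and CDH2 at 199 and 192 (-0.05).

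Very long neuronal genes, with a median span of 1370 kb, held one in 8 of 30 (26.7%), although only GPC6 and DMD of the 8 were at 1 FPKM or more. Cytokine and NF-kB genes did in 1 of 11, which was IL24, listed at 0 in EV cells and at 0.126 FPKM in BORIS cells. The GALNT family of glycosyltransferases did in 2 of 19, GALNT7 at 29.3 and 32.7 FPKM and GALNT10 at 49.1 and 45.8. Of 27 cancer-testis and germ cell genes with a span over 10 kb none held one (0 to 12.5%), and only 3 of that list were measured in these cells.

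The genes that differed were also read by their distance to these peaks. Of the 54 genes called higher, outside the small RNAs and with a usable estimate, 0 held a distal BORIS-only peak (0 to 6.64%), against 9.01% of 11885 genes at 1 FPKM or more, a difference of -9.01 percentage points (-9.54 to -2.35). Within 50 kb the count was 6 (11.1% against 17.9%, difference -6.78 points, -12.7 to 4.33), an interval that includes 0. The 54 had a median span of 26.3 kb and the background 33.6 kb, and the part of span length was not tested. CLGN, a chaperone of the testis, was the nearest, 14.5 kb from the closer of 2 peaks in the SCOC span, and was at 2.17 FPKM in EV cells and 12.5 in BORIS cells. IL8, a neutrophil chemokine, lay 42.1 kb from a peak and was at 129 and 322 FPKM. IL1B, the inflammatory cytokine, lay 44.7 kb away and was at 24.5 and 52.7 FPKM. CTCFL itself lay 587 kb from the nearest such peak and GALNT14 548 kb.

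Of the 19 genes called lower, 5 held a peak (26.3%, difference 17.3 points, 2.79 to 39.8) and 7 lay within 50 kb of one (36.8%, difference 19.0 points, 1.25 to 41.1). The 5 are the lower hosts given above, 2 of them uncertain read-through transcripts and 4 of them in shared spans. The others within 50 kb were EDN2, a vasoconstrictor peptide, 14.4 kb from a peak and at 62.5 and 29.7 FPKM, and NPPB, a natriuretic peptide, 49.7 kb away and at 23.4 and 7.66 FPKM. With 19 genes in 1 pair of libraries this difference rests on few genes.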

How the data were processed

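Each of the authors' deposited peak lists holds intervals with a score, the authors' own value of no stated unit, and a marked position. The sources used here do not name the caller or its settings, and the input was not used. Levels are FPKM as deposited, and p-values and q-values are those of the authors' deposited table. Build hg19 and the tools TopHat2, Bowtie and Cufflinks 2.0.0 stand in the submitters' processing notes. Read depth was unknown.

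Peaks were joined by overlap and distance in Python 3.11.15 with numpy 2.4.6, pandas 2.3.3 and scipy 1.17.1, and the joining was tested on simulated data. The 95% intervals are Wilson for shares, Newcombe for their differences, order-statistic for medians, exact Poisson for densities and log-normal for a ratio of ratios. Rows named as dates (28) kept no usable name. Coordinates are 1-based.

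Named regions were the 10 highest and 5 widest peaks, the longest runs with ties, and 3 peaks on each side of 5 kb. Named genes were 10 own-span hosts at each end of the ratio (official symbol, usable estimate, 1 FPKM, no small RNA), hosts with most peaks, genes at named regions and 2 hosts per list. Others were named after their values were seen, and some items that these rules pick are not reported here. Members and lists were chosen with earlier results of these data known. Alternatives changed the overlap, distance, spans, peaks kept, pseudocount and filter. The planned motif search was not run, because no genome of this build was used here.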

Additional observations from a re-analysis of the deposited data

How the results depend on the processing

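Over 13 settings 90 values were computed. Of these, 65 stayed inside the interval of the value reported or, for counts, which have no interval, within 1.5 times of it. The number of peaks ran from 446 to 2892. No paired analysis was possible because each group held 1 sample. Requiring a CTCF peak to cover 50% of a BORIS peak gave a median score of 170, a median distance to CTCF of 9070.5 bp and a share of 26.5% with a neighbour within 10 kb. With CTCF peaks widened by 1 kb the distance was 14994.2 bp and the neighbour share 21.3%. At more than 2 kb from gene ends the share inside a gene was 55.2%, the distance 10727.5 bp and the lower hosts 17, and at more than 10 kb the distance was 13200.5 bp. Using only spans of genes with 1 FPKM, 35.9% lay inside a gene, a minority where the value reported is a majority, and the median score was 165. The higher-scoring 50% of the BORIS list held 446 of the peaks, with a median score of 336, a neighbour share of 6.95%, 5 higher hosts, 3 lower hosts and a median host ratio of 0.001, of opposite sign to the -0.009 reported. Without a filter on low values the median host ratio was 0.000. In settings chosen after seeing the data, leaving out peaks in shared spans gave 37.7% inside a gene, again a minority, a neighbour share of 21.4%, 0 higher and 1 lower host and a median ratio of -0.032. Leaving out small RNA families gave 1 higher and 5 lower hosts (0.0928% and 0.464%, against 0.471% and 0.193% of all such genes). In both of these settings lower hosts outnumbered higher ones, unlike the 16 and 11 reported. Those 16 and 11 were close to the background (1.44% against 1.42% and 0.989% against 0.922%). The counts of both settings rest on few genes, and no direction is read from them. Read depth limits the peak calls by an unknown amount, and 1 sample a group leaves no measure of replicate error.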
